A study of Mus musculus with 21 samples.

Results

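The 45 genes described here are cell cycle and proliferation genes of the mouse, chosen by name. They include cyclins and their kinases, kinase inhibitors, the DNA replication machinery, and the regulators and motors of mitosis. All 45 were in the table of 57180 genes, and 44 passed the filter on low counts and were tested. Ccne1, which encodes cyclin E1, did not pass: it had 14 counts in 1 MG saline library, 8 counts in 1 MLC saline library and 0 in the other 19 libraries.

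A cell that divides first makes D-type cyclins, which activate Cdk4 and Cdk6, and these kinases inactivate the retinoblastoma protein so that E2F factors can turn on genes for DNA replication. Genes for G2 and mitosis follow later, many of them through a promoter motif called the cell cycle genes homology region (CHR) that is read by the DREAM and MuvB complexes. Microglia, the resident macrophages of the brain, divide rarely in the healthy adult and expand after injury, and cells that refill an emptied brain niche divide while they do so.

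RNA-seq libraries were made from cells sorted from the brains of adult mice. MG were transplanted microglia and MLC were transplanted cells derived from monocytes, both of the genotype Osb-GFP. NoTx were microglia of mice without a transplant, with the genotype CX3CR1-CreER+/-; CSF1R fl/fl. Cells came from mice given saline (3 MG, 3 MLC and 2 NoTx libraries) or taken 5 days after a kainic acid seizure (4 MG, 6 MLC and 3 NoTx libraries). The labels used here do not give the age in days, the genotype of the hosts or whether animals were pooled. Every library was a biological replicate by its title, and p-values measure the spread between these samples. Genotype and transplantation cannot be told apart against NoTx, and treatment cannot be told apart from batch, because all seizure libraries were batch 1 and all saline libraries batch 2. MLC seizure replicates 3 and 6 carry the mark 11b and the codes of replicates 2 and 4, and whether these are the same animals is not given. Names of seizure libraries share the codes F1, M1, F2 and M2 across groups, which the replicate numbers follow only in part, and the labels do not say that a code marks an animal, litter or day.

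Total counts ran from 36.5 M to 50.3 M per saline library and from 6.57 M to 73.8 M per seizure library. Thinned to equal depth, MG seizure replicates 3 and 4 and MLC seizure replicate 5 read the smallest numbers of genes at 10 counts or above (8925, 9676 and 9510), against 10265 to 11974 in the other 18. All 12 markers of microglia and macrophages reached 10 counts in all 21 libraries. Their summed level was 72685 to 116772 CPM (counts per M, or 1e6, counts of the library after TMM scaling) in MG seizure and 28149 to 52324 CPM in MLC seizure. Xist, the transcript of the inactive X chromosome, was above 50 CPM in 7 of 7 MG libraries, in 0 of 9 MLC libraries and in 2 of 5 NoTx libraries. Transcripts of the Y chromosome were read, after saline, in 2 of 3 MG, 3 of 3 MLC and 2 of 2 NoTx libraries, and after seizure in 4 of 4, 6 of 6 and 1 of 3, so most MG libraries held both Xist and Y transcripts. The kind of transplanted cell and the presence of Xist cannot be told apart in the MG and MLC comparison.

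The promoters of 37 of the 45 genes were matched by symbol in RefSeq (build GRCm38.p6), as 41 windows of 300 bases from 250 before to 50 after the gene's start. Motifs of 3 kinds were searched on both strands: the CHR (TTTGAA or TTCGAA), the CCAAT box (CCAAT), and E2F motifs (TTTGGCGC, TTTCCCGC, TTTCGCGC or TTTGCCGC). The promoters below are shown as examples of these motifs: Top2a and Cdk1 with CHR matches, Cenpe as a called gene without one, and Mcm6 with E2F matches. Each is the part before the start, 5′ to 3′ on the gene's strand, with motif matches in capitals. Top2a lies at chr11:99024190-99024439 (minus strand), Cdk1 at chr10:69352913-69353162 (minus strand), Cenpe at chr3:135212313-135212562 (plus strand) and Mcm6 at chr1:128359706-128359955 (minus strand).
Top2a: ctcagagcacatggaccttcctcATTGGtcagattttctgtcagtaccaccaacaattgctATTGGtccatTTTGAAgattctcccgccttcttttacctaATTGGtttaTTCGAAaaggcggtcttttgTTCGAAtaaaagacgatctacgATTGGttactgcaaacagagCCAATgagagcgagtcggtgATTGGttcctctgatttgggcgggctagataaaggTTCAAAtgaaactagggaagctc
Cdk1: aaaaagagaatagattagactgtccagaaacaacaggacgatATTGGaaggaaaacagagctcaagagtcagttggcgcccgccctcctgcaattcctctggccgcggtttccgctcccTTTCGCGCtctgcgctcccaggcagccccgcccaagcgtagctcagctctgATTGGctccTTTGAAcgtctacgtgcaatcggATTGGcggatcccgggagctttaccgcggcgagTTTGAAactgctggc
Cenpe: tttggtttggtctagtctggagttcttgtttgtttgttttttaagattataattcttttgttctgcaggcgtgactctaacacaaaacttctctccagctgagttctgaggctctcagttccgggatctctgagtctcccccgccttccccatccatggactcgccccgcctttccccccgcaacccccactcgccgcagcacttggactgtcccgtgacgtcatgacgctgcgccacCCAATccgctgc
Mcm6: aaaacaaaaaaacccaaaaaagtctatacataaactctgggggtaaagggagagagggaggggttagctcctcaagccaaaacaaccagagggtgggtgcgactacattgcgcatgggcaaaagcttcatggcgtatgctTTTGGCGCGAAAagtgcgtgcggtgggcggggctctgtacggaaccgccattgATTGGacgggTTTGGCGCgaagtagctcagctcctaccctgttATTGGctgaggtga

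The Top2a promoter, of the topoisomerase that untangles chromosomes in mitosis, holds 4 CHR and 6 CCAAT matches and 0 E2F matches. That of Cdk1, the kinase that drives mitotic entry, holds 2, 3 and 1. Cenpe, which encodes the kinetochore motor CENP-E, has 1 CCAAT match only; its transcript is 1 of the 2 called below. Mcm6, a subunit of the replicative helicase, has 3 E2F matches, of which 2 overlap, and 2 CCAAT matches. Among the 16 matched promoters of G2 and mitosis genes, 12 (75%) held a CHR, against 3 of 13 (23.1%) among the replication genes and 19.2% of all 32851 promoters in the table. An E2F match was in 6 of 13 replication promoters (46.2%), in 1 of 16 G2 and mitosis promoters (6.25%) and in 2.26% of all promoters. A CCAAT box was in 14 of 16 and 10 of 13 (87.5% and 76.9%), against 37.4% of all promoters. These matches describe the letters of the windows only. CCAAT was the most frequent of the 3 kinds in both roles, and CHR and E2F matches were spread unequally between them.

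The mean level over the 21 libraries was taken per kilobase of the longest transcript. Its median was 6.27 CPM among 9 genes, those of D-type and E-type cyclins and their kinases together with E2f1. It was 2.73 CPM among the 13 replication genes and 0.753 CPM among the 19 G2 and mitosis genes. Every one of the 19 G2 and mitosis genes had 3 or fewer counts in at least 1 library, compared with 6 of the 13 replication genes. The heatmap of all libraries shows this as dark cells that differ from library to library within a group.

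**Figure D1:**
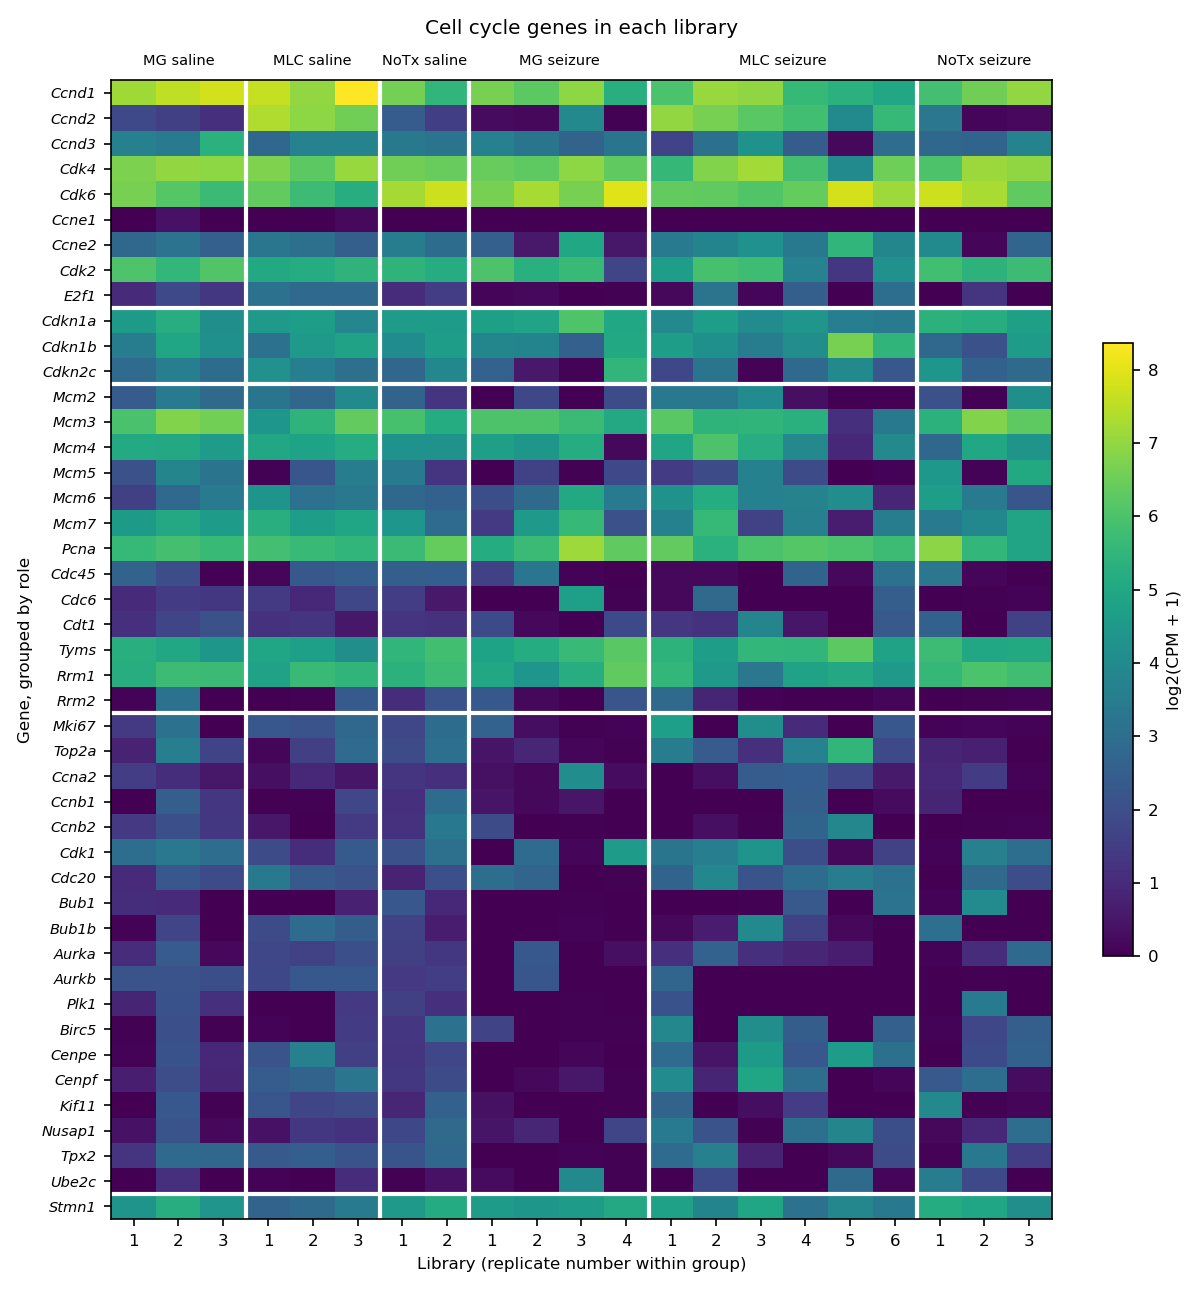
Level of each of the 45 genes, as log2(CPM + 1), in each of the 21 libraries; rows are genes grouped by role and columns are replicates within the 6 groups. Ccnd2 is bright in the 9 MLC libraries, and G2 and mitosis genes such as Cenpe, Tpx2 and Plk1 are dark in the 4 MG seizure libraries, whereas Ccna2 and Ube2c in replicate 3 and Cdk1 in replicate 4 are bright there.

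Of the 44 genes tested, 2 (Cenpe and Tpx2) were called between MLC and MG after seizure, both higher in MLC. This was 4.55% of the 44, against 5.88% of all 18867 genes tested in that comparison and 2.51% called higher, so the share of called members was near the background. The median log2 fold change of the 19 G2 and mitosis genes was 2.74 after seizure, with 15 of 19 above 0. Over all genes the median was 0 and 47.98% were above 0. Each of the 4 MG seizure libraries had 12 to 15 of the 19 genes at 3 or fewer counts. Many of these fold changes thus depend on how counts of 0 are handled. After saline the median of the 19 was -0.14, with 8 of 19 above 0. Over all 44 genes the medians were 0.46 and -0.09.

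Over the whole set, 0 of the 44 genes were called between MLC and MG after saline by edgeR, where 1.58% of all genes were, 2 had an unadjusted p under 0.05 (8% of all genes), and DESeq2 and limma-voom called 2 each (Ccnd2 and Stmn1; 3.5% and 9% of all genes). Groups of libraries did not overlap for 4 genes higher in MLC (Ccnd2, E2f1, Bub1b and Cenpf; 9.09% of 44) and 3 lower (Cdk2, Cdk1 and Stmn1; 6.82%), against 10.4% and 12.4% of all genes. After seizure the counts were 3 higher (Ccnd2, Top2a and Cenpe; 6.82%) and 1 lower (Cdkn1a; 2.27%), against 2.44% and 2.96%. At an unadjusted p under 0.05, 9 genes passed after seizure, and these were Ccnd2, E2f1, Cdkn1a and 6 of the G2 and mitosis genes, where 24.9% of all genes passed. DESeq2 called the same 9, against 13% of all genes, and limma-voom 3, against 5.64%.

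Ccnd2, which encodes cyclin D2, separated the 2 kinds of transplanted cells in both conditions by its library values, though not by the test. Its level was 162, 123 and 93.7 CPM in the MLC saline libraries and 2.61, 2.01 and 1.19 CPM in the MG saline libraries. After seizure it ran from 15.0 to 128 CPM (median 64.5) in MLC and was 0.196, 0.125, 14.2 and 0.0318 CPM in MG. In NoTx it was 4.44 and 1.91 CPM after saline and 8.99, 0.0912 and 0.151 CPM after seizure. Every one of the 9 MLC libraries was above every MG and NoTx library, although MG seizure replicate 3, at 14.2 CPM, came close to the lowest MLC library.

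In the saline comparison the means were 126 ± 34.5 and 1.94 ± 0.71 CPM (SD, n = 3 and 3). The log2 fold change was 6.02 (SE 1.70) with an edgeR adjusted p of 0.08885, so the difference was not called at 0.05 in the fit over all 21 libraries, which shares 1 estimate of spread per gene between saline and seizure groups. Fitted on the 6 libraries compared, it was called (adjusted p = 0.0002568). Over 14 other settings it was called in 3 (edgeR on the groups compared, DESeq2 and limma-voom), with adjusted p from 3.182e-06 to 0.3871 and a log2 fold change from 5.78 to 6.33. After seizure the means were 69.8 ± 39.8 (n = 6) and 3.64 ± 7.04 CPM (n = 4), a log2 fold change of 4.22 (SE 1.32, edgeR adjusted p = 0.06069). Without the 3 libraries of fewest genes, which include MG seizure replicate 3, the log2 fold change was 9.01 and the adjusted p 0.004292; over 22 other settings the call was made in 6, with adjusted p from 2.137e-05 to 0.1371. Against NoTx the log2 fold change of MLC was 5.31 after saline (SE 1.97, edgeR adjusted p = 0.3553) and 4.53 after seizure (SE 1.53, adjusted p = 0.08059). Neither was called, and without NoTx seizure replicate 1 the seizure difference was 9.21 and was called (adjusted p = 0.008391).

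The other D-type cyclins had no such gap between MLC and MG. Ccnd1, encoding cyclin D1, was the most abundant D-type cyclin per kilobase in 20 of 21 libraries (MLC seizure replicate 1 had more Ccnd2). Its saline levels were 144, 187 and 221 CPM in MG, 199, 128 and 328 CPM in MLC, and 98.0 and 44.8 CPM in NoTx. Its MLC against MG log2 fold change was 0.25 (SE 0.53) after saline and -0.18 (SE 0.42) after seizure, with edgeR adjusted p of 1 and 0.8632. Ccnd3, encoding cyclin D3, had 5.87 to 12.4 CPM in MLC saline and 10.2 to 39.3 CPM in MG saline, and its log2 fold change was -1.02 (SE 1.02, adjusted p = 1). After seizure that of Ccnd3 was -0.33 (SE 0.80, adjusted p = 0.8725). As a share of the 3 D-type cyclins per kilobase, Ccnd2 made up 14.0% to 34.2% in MLC saline and 18.4% to 53.5% in MLC seizure. In MG the share was 0.272% to 0.982% after saline and 0.0416% to 6.24% after seizure, and in NoTx 2.09% to 2.39% and 0.0553% to 7.75%. The MLC cells thus carried a mixture of cyclin D1 and cyclin D2 transcripts, where MG and NoTx carried mostly cyclin D1.

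**Figure D2:**
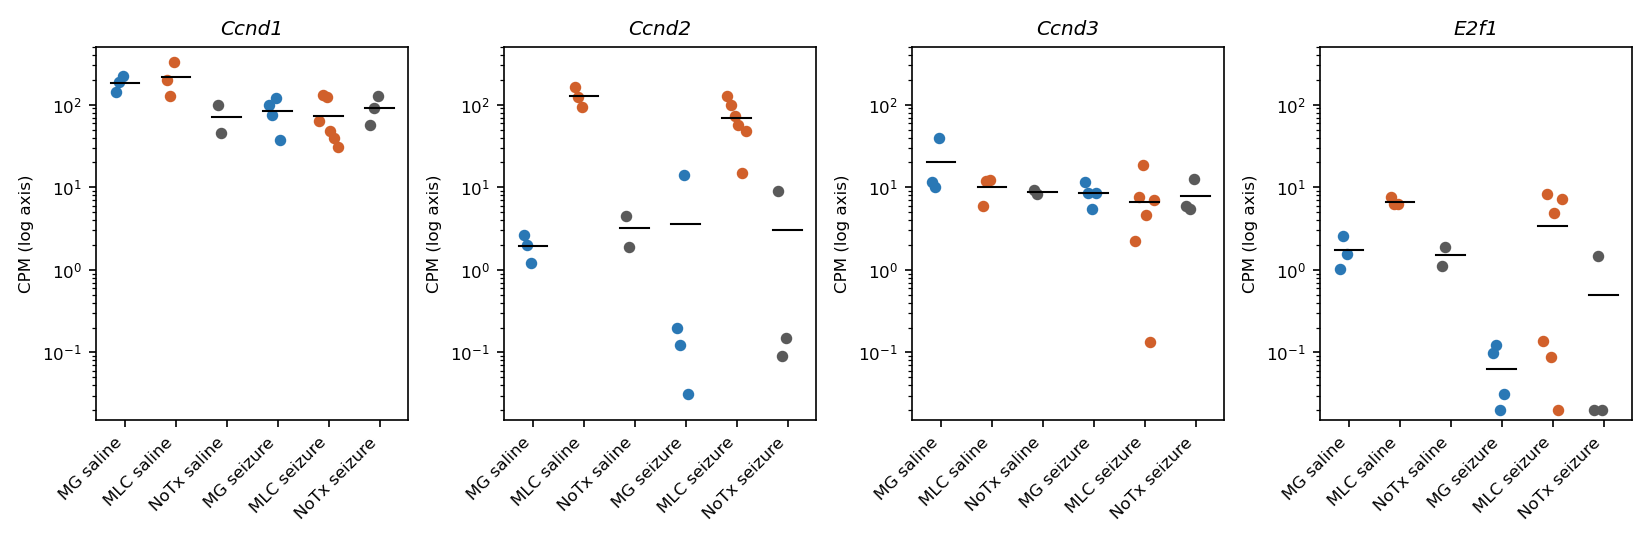
CPM on a log axis of Ccnd1, Ccnd2, Ccnd3 and E2f1 in each library (points) with the group mean (line); values under 0.02, including 0, are drawn at 0.02. In the Ccnd2 panel the 9 MLC libraries lie between 15.0 and 162 CPM and all MG and NoTx libraries at or under 14.2 CPM, while the Ccnd1 panel shows no such gap.

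The kinases that D-type cyclins activate were abundant in all groups. Cdk4 ranged from 14.8 to 147 CPM over the 21 libraries and Cdk6 from 36.4 to 245 CPM. Neither was called between MLC and MG, with log2 fold changes of -0.15 and -0.39 after saline and -0.22 and -0.40 after seizure (edgeR adjusted p of 0.5677 to 1). Against NoTx after saline, where NoTx had 2 libraries, Cdk6 was lower in both transplanted groups and did not pass the test. It was 99.7, 71.0 and 50.7 CPM in MG, 80.9, 52.2 and 36.4 CPM in MLC, and 150 and 209 CPM in NoTx. The log2 differences from NoTx were -1.28 (SE 0.53, edgeR adjusted p = 1) for MG and -1.67 (SE 0.53, adjusted p = 0.1906) for MLC. The MLC difference was called in 2 of 13 other settings (limma-voom and the fit with a replicate block), with adjusted p from 0.002429 to 1. Ccnd1 had the opposite pattern there, with log2 differences from NoTx of 1.37 (SE 0.63) for MG and 1.61 (SE 0.63) for MLC (adjusted p = 1 and 0.4239).

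E2f1, the activating E2F factor, had 7.60, 6.28 and 6.20 CPM in MLC saline and 1.02, 2.58 and 1.55 CPM in MG saline, groups that did not overlap (log2 fold change 1.96, SE 1.87, edgeR adjusted p = 1). After seizure it had 3 counts over the 4 MG libraries together and reached 8.22 CPM in MLC, where 3 of 6 libraries were at or under 0.139 CPM. That difference was not called (adjusted p = 0.08109). Ccne2, encoding cyclin E2, was between 0.076 and 44.5 CPM, and Cdk2, the kinase of E-type cyclins, between 1.49 and 67.6 CPM. Cdk2 was 33.1 to 42.6 CPM in MLC saline and 45.7 to 67.6 CPM in MG saline, again with no overlap and no call.

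The 3 kinase inhibitors act as brakes on these kinases. Cdkn1a, encoding p21, a target of p53, was 25.9, 28.4, 65.8 and 31.2 CPM in MG seizure and 9.55 to 24.0 CPM (median 15.2) in MLC seizure, so that all MLC libraries were under all MG libraries. The means were 15.7 ± 5.36 and 37.8 ± 18.8 CPM, and the log2 fold change was -1.27 (SE 0.41, edgeR adjusted p = 0.07078). It was called in 1 of 22 other settings (DESeq2), and without the 3 libraries of fewest genes it was -0.59 (adjusted p = 0.519) and without MG seizure replicate 3 alone it was -0.86 (adjusted p = 0.2532). Over the 22 settings the adjusted p ran from 0.008858 to 0.519. After saline Cdkn1a was 13.8 to 24.8 CPM in MLC and 17.0 to 36.1 CPM in MG, a log2 fold change of -0.33 (SE 0.53, adjusted p = 1). Cdkn1b, encoding p27, was 10.7 to 100 CPM in MLC seizure and 4.91 to 33.2 CPM in MG seizure (log2 fold change 1.15, SE 0.71, adjusted p = 0.3347). After saline its log2 fold change was -0.03 (SE 0.86). Cdkn2c, encoding p18, which binds Cdk4 and Cdk6, was between 0.0531 and 44.7 CPM over all libraries and was not called in any comparison.

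The 13 replication genes overlapped in sum between MG and MLC. They license and copy DNA: Mcm2 to Mcm7 form the helicase, Cdc6 and Cdt1 load it, Cdc45 activates it, Pcna is the sliding clamp, and Tyms, Rrm1 and Rrm2 make nucleotides. Their summed level was 302 ± 52.1 CPM in MG saline, 258 ± 34.5 in MLC saline and 267 ± 4.38 in NoTx saline. After seizure it was 284 ± 96.3 CPM in MG, 241 ± 64.1 in MLC and 312 ± 22.3 in NoTx. These ranges overlapped between MG and MLC in both conditions, and 0 of the 13 genes were called between them. Their median log2 fold change was -0.03 after saline and -0.26 after seizure, against a median of 0 over all genes tested.

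Pcna was read in every library, at 28.7 to 139 CPM. It was 57.7, 50.1 and 44.6 CPM in MLC saline and 47.5, 58.3 and 49.4 CPM in MG saline, a log2 fold change of -0.03 (SE 0.49, edgeR adjusted p = 1), and after seizure the log2 fold change was -0.32 (SE 0.38, adjusted p = 0.6801). Mcm2 was more scattered. It was 4.29, 9.99 and 6.36 CPM in MG saline and 8.62, 5.77 and 14.7 CPM in MLC saline, and after seizure 0, 2.49, 0 and 2.73 CPM in MG and 0 to 15.3 CPM (median 4.84) in MLC. Its log2 fold changes were 0.50 (SE 1.95) and 2.14 (SE 1.68), with adjusted p of 1 and 0.4779. Mcm3, Tyms, Rrm1, Mcm4, Mcm6 and Mcm7 also had at least 4 counts in all libraries, whereas Rrm2, the subunit of ribonucleotide reductase that is made in S phase, had 3 or fewer counts in 13 of 21 libraries. Rrm1 was 8.86 to 45.7 CPM in MLC seizure and 46.2, 62.5 and 55.0 CPM in NoTx seizure (log2 fold change -1.05, SE 0.44, edgeR adjusted p = 0.1521).

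The 19 G2 and mitosis genes summed to more in every MLC library than in any MG library after seizure. Their summed level was 118, 54.4, 129, 69.7, 115 and 43.4 CPM in the 6 MLC libraries and 19.3, 22.3, 32.8 and 26.4 CPM in the 4 MG libraries, so the groups did not overlap. The means were 88.3 ± 36.8 and 25.2 ± 5.81 CPM. With the most abundant gene of each library left out of its sum, MLC ranged from 35.4 to 101 CPM and MG from 3.15 to 16.5 CPM. Without the 3 libraries of fewest genes the sums were 43.4 to 129 CPM in MLC and 19.3 and 22.3 CPM in MG. After saline the sums overlapped, at 40.7, 49.8 and 59.8 CPM in MLC, 22.9, 79.2 and 27.8 CPM in MG, and 36.2 and 79.1 CPM in NoTx. NoTx seizure libraries, at 39.2, 72.5 and 35.6 CPM, lay above all MG seizure libraries and overlapped with MLC. In bulk samples, fewer dividing cells and less RNA per dividing cell cannot be told apart, and no sample of known dividing share calibrates these sums.

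MG seizure libraries also had few G2 and mitosis genes detected. At equal depth, 2 to 4 of the 19 genes had 10 or more counts in MG seizure, 7 to 13 in MLC seizure, 4 to 11 in NoTx seizure, 6 to 16 in MG saline, 10 to 14 in MLC saline and 11 to 13 in NoTx saline. In MG seizure the top 3 genes of a library held 72.6% to 98.1% of its sum, and these differed between libraries: Cdk1 alone held 88.1% in replicate 4 and Ccna2, encoding cyclin A2, 49.6% in replicate 3. In MLC seizure the top 3 held 38.1% to 71.1%. The MG seizure sums thus rested on a few genes per library, and those of MLC were spread over more. MG seizure replicates 3 and 4 had 47.4 M and 34.1 M counts but also the fewest genes of their group, and 4 of the 6 MLC libraries had 10.8 M counts or fewer.

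**Figure D3:**
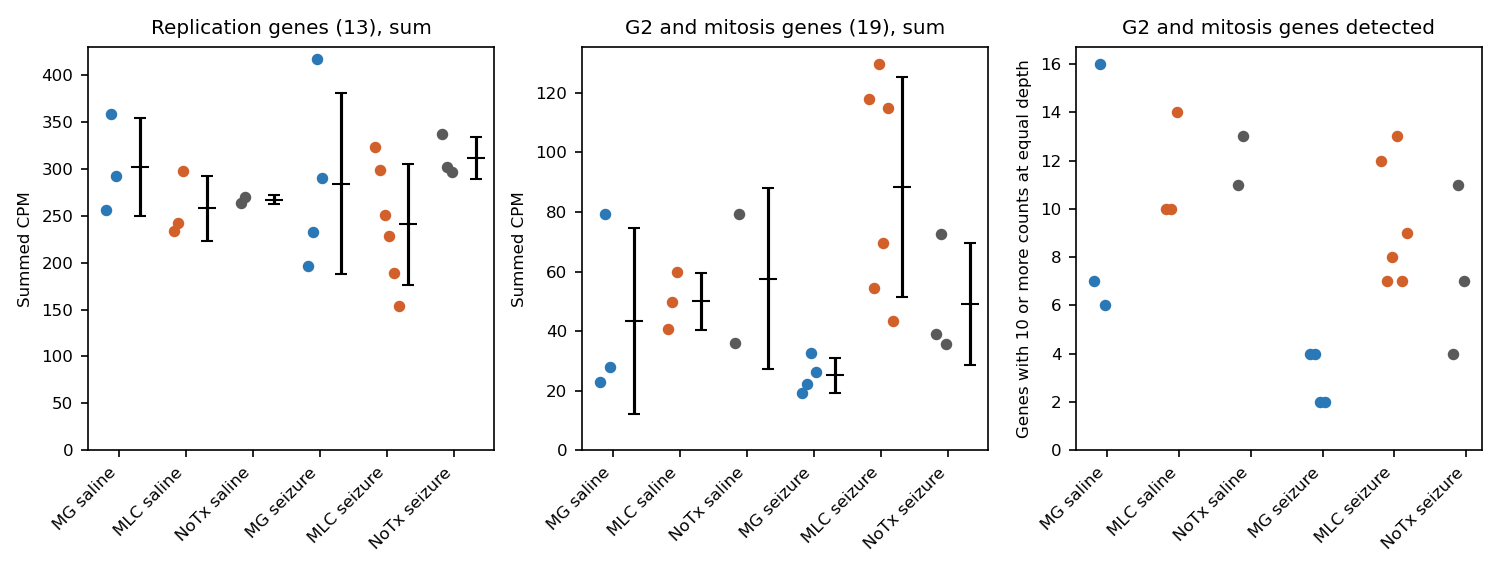
Summed CPM of the 13 replication genes (left) and the 19 G2 and mitosis genes (middle), and the number of the 19 with 10 or more counts at equal depth (right), for each library (points) by group; black bars in the first 2 panels are mean and SD. The 6 MLC seizure sums of G2 and mitosis genes lie between 43.4 and 129 CPM, above the 4 MG seizure sums of 19.3 to 32.8 CPM, and the replication sums overlap.

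Markers of other cells that could divide were read beside these genes. In MG and MLC seizure libraries the neural stem cell and neuroblast list summed to 187 to 307 and 90.6 to 514 CPM, nearly all of it Sox4, with Eomes, Neurod1 and Sox2 at 0 in both groups. T and NK cell markers summed to 0 to 14.3 and 0.0295 to 8.13 CPM with Cd3e at 0, and monocyte and dendritic cell markers to 10.3 to 60.0 and 2.84 to 32.8 CPM. B cell markers summed to 618 to 1614 and 230 to 636 CPM, most of it Ighm, with Cd79a and Pax5 at 0, and neutrophil markers to 126 to 362 and 22.2 to 141 CPM with Ly6g and Mpo at 0. Other markers of these lists were read, so those at 0 do not show that a kind of cell was absent. Of the 10 neutrophil markers, Csf3r was highest in MG and in MLC (mean 252 and 51.3 CPM). Of these 10, 2 to 6 reached 10 counts in MG libraries and 2 to 7 in MLC libraries. Of the 12 T and NK cell markers, at most 1 and 3 did. Nkg7 was highest in MG (mean 3.57 CPM) and Cd4 in MLC (1.56 CPM). Dcx, Sox11, Dlx1 and Dlx2 had counts in MLC, where 1 of the 12 neural stem cell and neuroblast markers reached 10 per library. Astrocyte markers were 337 to 569 CPM in MG and 7.003 to 156 CPM in MLC. The highest of these was Slc1a3 in MG (mean 437 CPM) and Aldoc in MLC (32.2 CPM). Of the 10 astrocyte markers, 2 to 5 reached 10 counts in MG libraries and 2 to 9 in MLC libraries. Oligodendrocyte markers were 77.8 to 182 and 46.8 to 101 CPM, neuron markers 0.159 to 15.2 and 0.677 to 66.7 CPM, endothelial markers 4.35 to 62.4 and 1.21 to 6.56 CPM, and red cell markers 73.8 to 157 and 29.4 to 952 CPM. Of these lists, the highest sums of red cell, neuron and neural stem cell markers were in MLC, and their part in the G2 and mitosis sums was not tested.

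Cenpe had 6.67, 0.404, 22.5, 3.796, 23.5 and 7.48 CPM in the 6 MLC seizure libraries and 0, 0, 0.106 and 0 CPM in the 4 MG seizure libraries. All MLC libraries were above all MG libraries, which held 4 counts of Cenpe in total against 1159 in MLC. The means were 10.7 ± 9.85 and 0.0265 ± 0.0531 CPM, and the log2 fold change was 8.06 (SE 1.86, edgeR adjusted p = 0.01019). With counts pooled over each group and divided by the total counts, the ratio was 337 (95% interval 131 to 1240, counting error only). All 4 MG counts were in MG replicate 3, and 763 of the 1159 MLC counts were in MLC replicate 3, which carries the mark 11b. This ratio thus rests mainly on these libraries, and the size of the fold change on the MG one. Without MG replicate 3 the log2 fold change was 11.27 (edgeR adjusted p = 0.0162). Without MLC replicate 3 it was 7.76 (edgeR adjusted p = 0.01658). Cenpe was called in 21 of 22 other settings, with adjusted p from 6.292e-08 to 0.08659; the highest came without the 3 libraries of fewest genes, where the log2 fold change was 10.94. After saline Cenpe was 3.43, 11.4 and 2.02 CPM in MLC and 0.0699, 3.33 and 0.944 CPM in MG, overlapping values (log2 fold change 1.95, SE 1.60, adjusted p = 1). MG seizure was thus the group in which the transcript was nearly unread.

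Tpx2, which encodes a spindle assembly factor that activates Aurora A, had 6.67, 11.4, 0.797, 0, 0.135 and 2.89 CPM in MLC seizure and 0, 0, 0.0531 and 0.0318 CPM in MG seizure. The lowest MLC library was at 0, so the groups overlapped. The log2 fold change was 6.80 (SE 1.82, edgeR adjusted p = 0.02705), and the ratio of pooled counts, 210 against 3, was 81.5 (95% interval 27.5 to 398). Its call held in 12 of 21 other settings, with adjusted p from 1.752e-05 to 0.1542, and was lost without any 1 of the 4 MG seizure libraries, with limma-voom, with a replicate block (by number, by library code or with a GC correction) and without the 3 libraries of fewest genes. After saline Tpx2 was 4.17, 4.64 and 3.52 CPM in MLC and 1.37, 6.23 and 6.00 CPM in MG (log2 fold change -0.14, SE 1.59).

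Top2a was 0.393, 0.872, 0.106 and 0.0318 CPM in MG seizure and 1.18 to 44.7 CPM (median 7.44) in MLC seizure, with no overlap. The log2 fold change was 5.25 (SE 1.59) and its edgeR adjusted p of 0.05394 was over the limit. It was called in 5 of 22 other settings, with adjusted p from 5.763e-05 to 0.3668. MLC seizure replicate 5, at 44.7 CPM, was far above the others, which reached 11.99 CPM. Mki67, which encodes the proliferation antigen Ki-67, was 5.21, 0.249, 0.0265 and 0.0635 CPM in MG seizure and 0 to 25.4 CPM (median 2.403) in MLC seizure, where 2 libraries were at 0. Its log2 fold change was 2.50 (SE 1.74, adjusted p = 0.4034), and after saline 0.50 (SE 1.97, adjusted p = 1). The most used proliferation marker was therefore not called and was at 0 in libraries that had other mitotic transcripts.

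Cenpf, a kinetochore protein of late G2, was 0, 0.125, 0.451 and 0.0318 CPM in MG seizure and 0 to 28.9 CPM (median 3.98) in MLC seizure, a log2 fold change of 5.71 (SE 1.74, edgeR adjusted p = 0.05498) that was called in 10 of 21 other settings, with adjusted p from 6.986e-05 to 0.1789. Ccnb1, encoding cyclin B1, was read at 4.83 CPM in MLC seizure replicate 4 and at 0.177 CPM or less in the other 5, against 0 to 0.424 CPM in MG seizure (log2 fold change 1.81, SE 2.08, adjusted p = 0.6591). Cdk1 was 0, 6.603, 0.0796 and 23.3 CPM in MG seizure and 0.135 to 18.9 CPM (median 5.75) in MLC seizure, with a log2 fold change of -0.05 (SE 1.31, adjusted p = 1). Bub1 and Bub1b, of the spindle checkpoint, and Plk1, a mitotic kinase, had 1, 2 and 1 counts over the 4 MG seizure libraries. In MLC seizure Bub1 and Plk1 were each read at 0.03 CPM or less in at least 4 of 6 libraries. Aurkb, encoding Aurora B, was at 0 in 5 of 6 MLC and 3 of 4 MG seizure libraries. Members of this role were therefore present in a different combination in each seizure library.

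**Figure D4:**
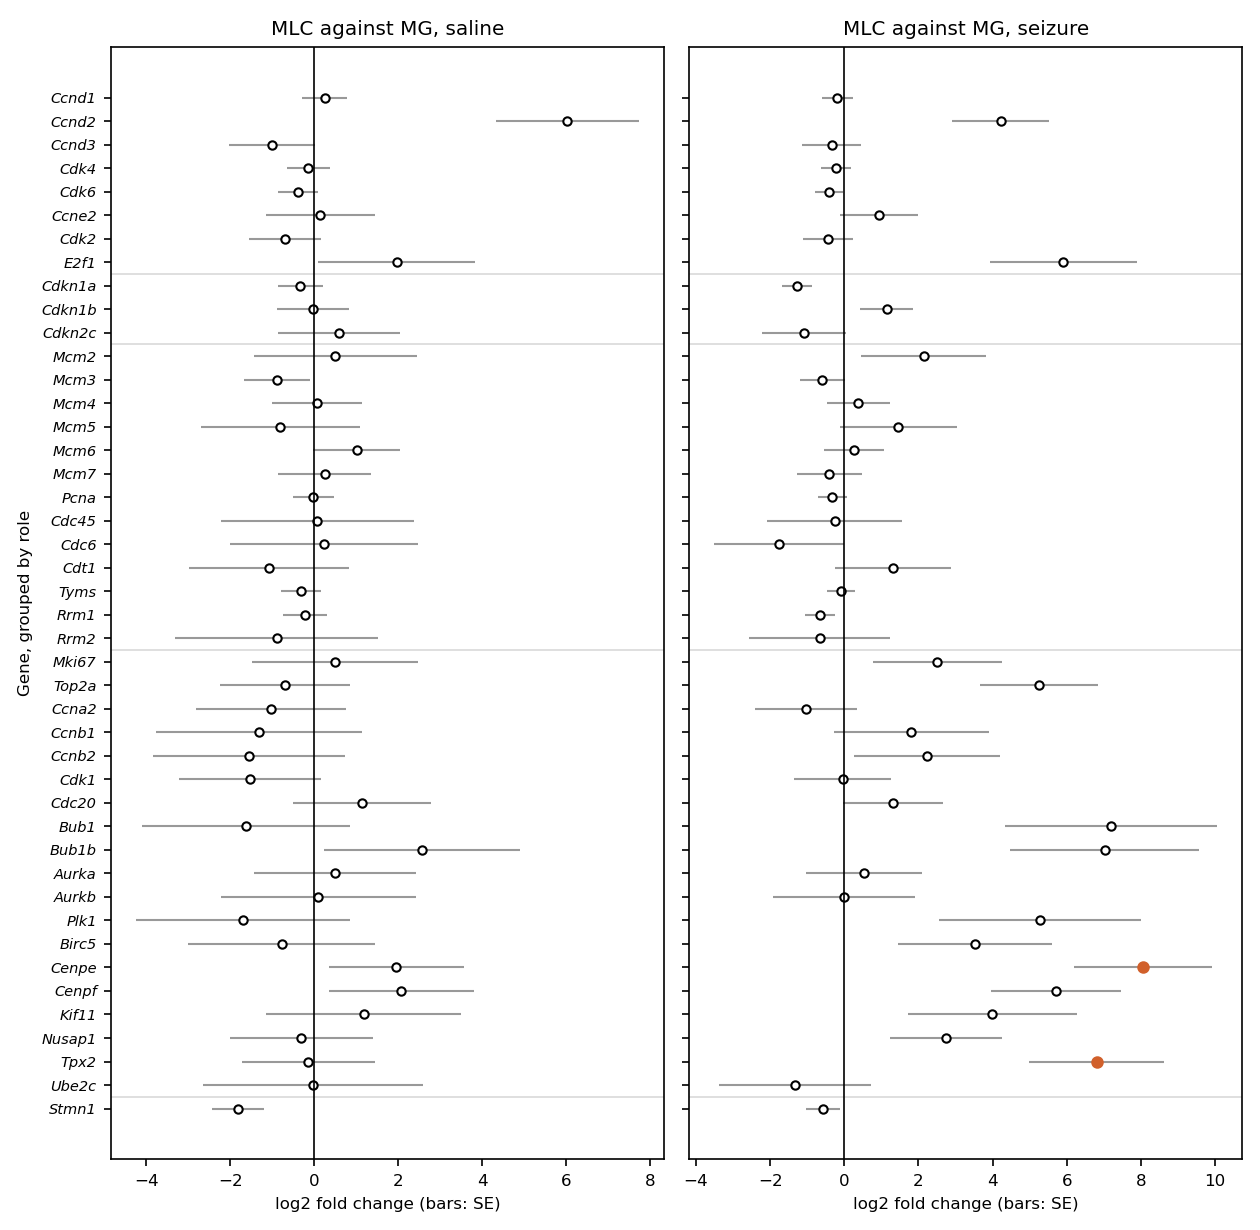
Log2 fold change of MLC against MG (points, with SE as bars) for the 44 tested genes by role, after saline (left) and after seizure (right); filled points passed edgeR's adjusted p of 0.05. Cenpe (8.06) and Tpx2 (6.80) are filled on the right, Ccnd2 lies at 6.02 and 4.22 unfilled, and E2f1, Bub1, Bub1b, Plk1 and Tpx2 had 1 to 3 counts over the 4 MG seizure libraries, so their fitted values depend on how counts of 0 are handled.

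Stmn1, encoding the microtubule destabiliser stathmin, is linked to proliferation and to neurons, and was read in every library. It was 5.30, 6.45 and 9.61 CPM in MLC saline and 19.3, 36.0 and 19.7 CPM in MG saline, with NoTx saline at 21.7 and 34.3 CPM. MLC lay under both other groups, a gap from MG that 12.4% of all genes tested also had, and NoTx had 2 libraries. The MLC against MG log2 fold change was -1.81 (SE 0.62, edgeR adjusted p = 0.2438); it was called in 3 of 14 other settings, with adjusted p from 0.007403 to 0.7648. After seizure Stmn1 was 7.76 to 29.3 CPM in MLC and 20.4 to 31.7 CPM in MG, which overlap (log2 fold change -0.57, SE 0.47).

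Against NoTx, edgeR called 0 of the 44 genes in each of the 4 comparisons. The share of all genes called was 0.053% for MG after saline, 0.0742% for MG after seizure, 1.26% for MLC after saline and 6.16% for MLC after seizure. Unadjusted p was under 0.05 for 2, 8, 4 and 8 genes in that order, against 3.4%, 11.1%, 8.08% and 24.8% of all genes. DESeq2 called 0, 4, 2 and 6, against 0.551%, 3.32%, 3.5% and 14.6%, and limma-voom 2, 0, 4 and 1, against 2.33%, 0.127%, 8.22% and 7.07%. After seizure, 7 of these 8 MG genes were G2 and mitosis genes with negative log2 fold changes, among them Tpx2, at 0.0691, 9.46 and 1.87 CPM in NoTx. For some of these, 1 NoTx library held nearly all of the signal: Bub1 was 15.4 CPM in replicate 2 and 0.0691 CPM or less in the other 2, and Kif11, a spindle motor, was 14.2 CPM in replicate 1 and 0.101 CPM or less in the others. Mki67 was 0.0691, 0.076 and 0.0505 CPM in NoTx seizure, against up to 25.4 CPM in MLC seizure (log2 fold change 6.79, SE 2.52, edgeR adjusted p = 0.1102). These comparisons share the MLC and MG libraries with those above.

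Seizure against saline, which is also batch 1 against batch 2, gave 0 called members in MG, MLC and NoTx by edgeR. Of all genes, 0.0371% were called in MG, 0% in MLC and 0.106% in NoTx. Unadjusted p was under 0.05 for 8, 3 and 3 members, against 11.8%, 11.9% and 7.35% of all genes. DESeq2 called 2, 0 and 0, against 1.45%, 0.689% and 1.16%, and limma-voom 1, 0 and 0, against 1.38%, 0.546% and 0.477%. In MG the median log2 difference of the 44 genes was -0.59, against -0.08 over all genes, and the libraries of Ccnd1, E2f1, Mcm2, Mcm5, Plk1, Cenpf and Tpx2 did not overlap, all 7 lower after seizure (15.9% of 44, against 11.9% of all genes lower and 4.02% higher). In MLC and NoTx the medians were -0.01 and 0.04. Ccnd1 had 99.4, 75.6, 121 and 36.9 CPM in MG seizure and 30.3 to 133 CPM (median 55.5) in MLC seizure, with log2 differences from saline of -1.15 (SE 0.50, edgeR adjusted p = 0.3979) and -1.58 (SE 0.45, adjusted p = 0.3039). Cdk6 differed from saline by 1.02 (SE 0.46) in MG and 1.00 (SE 0.44) in MLC, with adjusted p of 0.4076 and 0.3782. In NoTx seizure all 3 libraries had less Mki67, Top2a, Ccnb1, Ccnb2, Aurkb, Cdc6 and Rrm2 than both saline libraries, and more Cdkn1a. These 7 lower and 1 higher were 15.9% and 2.27% of 44, against 16.2% and 4.96% of all genes, shares near or under the background. Blood monocyte and dendritic cell markers summed to 137 to 560 CPM in NoTx saline and 20.4 to 37.8 CPM in NoTx seizure. Neutrophil markers, at 389 to 1674 and 101 to 1422 CPM, overlapped. The part of such cells in these NoTx differences was not tested.

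The difference between the seizure responses of MLC and MG was tested directly as an interaction. By edgeR 0 of 44 members were called, as were 0% of all genes, 4 members had an unadjusted p under 0.05 (5.49% of all genes), DESeq2 called 1 (Tpx2; 0.758% of all genes) and limma-voom 0 (0.0424%). The 4 were Tpx2, Top2a, Cenpe and Bub1, all at an edgeR adjusted p of 0.8927. The log2 interaction terms were 6.94 (SE 2.36) for Tpx2, 5.95 (SE 2.20) for Top2a and 6.11 (SE 2.26) for Cenpe, and that of Bub1 rested on 1 count in MG seizure. A difference in the seizure response of the 2 kinds of cells was thus not shown for any of these genes.

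The rest of the pathway was read from lists of other cell cycle genes. Among 61 other G2 and mitosis genes tested, edgeR called 2 higher and 2 lower in MLC than in MG after seizure, and 0 after saline. Of all genes 2.51% were called higher and 3.37% lower, so these shares of 61 were near the background. Anln, encoding anillin of the cleavage furrow, had 473 counts over the 6 MLC seizure libraries and 0 over the 4 MG libraries (edgeR adjusted p = 0.0169), and Cenpk, of the inner kinetochore, had 200 and 1 (adjusted p = 0.03616). The 2 called lower were of the same role. Ncaph, a subunit of condensin I, was 0.271 to 12.9 CPM in MLC seizure and 29.5 to 80.8 CPM in MG seizure (log2 fold change -3.46, SE 0.72, adjusted p = 0.004459), and after saline it was 3.15 to 10.5 CPM in MLC and 37.9 to 58.8 CPM in MG. Kif2c, a microtubule depolymerase of the centromere, had 4 counts in MLC seizure and 598 in MG seizure, where 2 of 4 libraries had 10 or more (log2 fold change -6.62, SE 1.75, adjusted p = 0.02556). The list's median log2 fold change was 0.82 after seizure and 0.21 after saline, against 0 over all genes. Called mitotic genes thus lay in both directions.

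Of 60 other replication genes, 1 was called higher in MLC than in MG after seizure, against 2.51% of all genes, so this share was not above the background. It was Dut, the enzyme that removes dUTP, with 148 counts in MLC and 0 in MG (edgeR adjusted p = 0.02518). Of 28 E2F, pocket protein and MuvB regulators, 1 was called lower, against 3.37% of all genes, a share near the background. It was the histone chaperone Rbbp4, at 53.7 to 114 CPM in MLC seizure and 103 to 363 CPM in MG seizure (log2 fold change -1.27, SE 0.28, edgeR adjusted p = 0.007884). Of 25 p53 target genes 2 were called lower, against 3.37% of all genes. A log2 fold change above 0 was found for 8 of the 25, against 47.98% of all genes. The antiproliferative gene Btg2 was 61.2 to 308 CPM in MLC and 335 to 737 CPM in MG, with a log2 fold change of -1.38 (SE 0.35; adjusted p = 0.02043), and the repair nuclease Ercc5 differed by -1.89 (SE 0.44, adjusted p = 0.01054). None of 5 other kinase inhibitors was called, and after saline edgeR called 0 genes of all 5 lists, where unadjusted p was under 0.05 for 1 G2 and mitosis gene, 1 kinase inhibitor and 1 p53 target.

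Against NoTx after seizure, 4 other G2 and mitosis genes were called higher in MLC, 1 lower (Ncaph, log2 fold change -3.49), 2 replication genes higher, and of the regulators 2 higher and 1 lower (Rbbp4). Of all genes 2.55% were called higher and 3.61% lower there. The 3 largest differences among the G2 and mitosis genes were on counts near 0 in NoTx. Cenpn, of the inner kinetochore, had 368 counts over the 6 MLC libraries and 0 over the 3 NoTx libraries (edgeR adjusted p = 0.04845). Cdca2, which targets a phosphatase to mitotic chromosomes, had 282 and 1 (adjusted p = 0.0348), and Ckap2l, a spindle protein, 700 and 3 (adjusted p = 0.03484). Of the replication genes called, Mcm8, a helicase of DNA repair, had 1085 and 5 counts (log2 fold change 7.67, SE 2.11, adjusted p = 0.03145). MG seizure libraries held 117, 4, 204 and 84 counts of Cenpn, Cdca2, Ckap2l and Mcm8. Pola1, of DNA polymerase alpha, was 6.33 to 63.3 CPM in MLC seizure and 0.0505 to 0.346 CPM in NoTx seizure (log2 fold change 7.60, SE 1.43, edgeR adjusted p = 0.001658). The retinoblastoma gene Rb1 was 60.3 to 161 CPM and 29.4 to 36.3 CPM (log2 fold change 1.77, SE 0.43, adjusted p = 0.01542). E2f2, an activating E2F factor, had 425 counts in MLC and 0 in NoTx (adjusted p = 0.01935). Btg2 and Ercc5 were called lower here too. MG seizure had Rb1 at 37.3 to 128 CPM and Pola1 at 0.0635 to 17.9 CPM. The NoTx saline libraries held 220, 23, 498, 168 and 344 counts of Cenpn, Cdca2, Ckap2l, Mcm8 and E2f2. Pola1 was 5.57 to 13.2 CPM there. Median CPM in MLC saline and MLC seizure was 3.13 and 2.25 for Cenpn, 2.37 and 2.11 for Cdca2, and 8.10 and 3.61 for E2f2. It was 3.05 and 7.51 for Ckap2l, 1.58 and 8.73 for Mcm8, and 14.1 and 26.4 for Pola1.

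Close copies and shared reads limit some of these genes. Of the 809 values above 0, 210 (26.0%) were off a whole number by more than 0.01, among them 21 of 21 for Ccnd1, 20 of 21 for Cdk4 and 19 of 20 for Ccna2, whereas Cenpe, Tpx2, Mki67, Cdk1, Bub1 and Plk1 had 0 such values. Among named pseudogenes, Pcna-ps2 reached 33 counts, Ccnb2-ps 21 and Tyms-ps 12, and the others 0 to 3.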

How the data were processed

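RNA-seq of sorted mouse brain cells (low-input, PCR-amplified libraries) gave 1 table of 57180 genes in 21 libraries. Its deposited values are estimated counts per gene, raw per the labels, and 28.2% to 45.4% of a library's values are not whole. The submitters' processing notes name GRCm39, Trim Galore 0.6.7, cutadapt 3.4, STAR 2.7.10a, featureCounts, Subread 2.4.5 and DESeq2 1.36.0 without their roles; which tool gave the fractional counts is not stated in those notes or the labels.

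Counts were rounded and tested with edgeR 4.0.16 (R 4.3.3; TMM scaling, filterByExpr, robust quasi-likelihood fit of 6 group means over all 21 libraries), with Benjamini-Hochberg adjustment over all 18867 genes tested and a threshold of 0.05. SE is the log2 fold change divided by the root of F. The test was checked on simulated data with changes set only in abundant genes. These were all above the 19 G2 and mitosis genes (mean 1.12 to 6.38 CPM), so the check does not cover genes at that level. Total counts ran from 6.57 M to 73.8 M per library, and CPM uses these totals after TMM scaling. Intervals (95%, exact) cover counting error only. Equal depth means binomial thinning to the smallest library. Transcript lengths came from GENCODE on GRCm38 and promoters from RefSeq, neither on the build of the counts.

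The members and lists were chosen with earlier results of these data known. Full statistics go to the members called and to Mki67, Top2a, Ccnb1, Cdk1, Mcm2, Pcna, Ccnd1, Ccnd2, Ccnd3, Cdkn1a and Cdkn1b; those given for Cdk4, Cdk6, E2f1, Cenpf, Rrm1, Stmn1 and the interaction were chosen after their values were seen. Other pathway genes are named when called, at most 3 per list and direction by fold. Alternatives were DESeq2 1.42.0, limma-voom 3.58.1, RLE scaling, no filter, only the groups compared, a replicate block (by number and, added after seeing the data, by library code), a GC correction, 11b libraries left out or summed, the 3 libraries of fewest genes left out, and each library left out.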

Additional observations from a re-analysis of the deposited data

Results flagged for a closer look

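Among 98 values of members and role sums in MG seizure and MLC seizure, 32 (32.7%) had 1 library far from the rest of its group, by the gap to the nearest library divided by the group's range. For values with a normal spread, the limits used would flag about 1 in 20. CPM with many values at 0 do not have such a spread, so this rate is no yardstick for the 32.7%. A gene read in only 1 library of a group is flagged whatever its count. MG seizure replicate 3, 1 of the 3 libraries of fewest genes, held 11 of the 32. It was the highest of its group for Ccnd2 (14.2 CPM), Cdk4 (121), Ccne2 (31.2), Cdkn1a (65.8), Cdc6 (25.5), Ccna2 (16.3) and Ube2c (15.1), and for genes with 1 to 4 counts in the group it was the only library above 0: Bub1 (0.0265 CPM), Bub1b (0.0531), Plk1 (0.0265) and Cenpe (0.106).

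MG seizure replicate 1 stood apart for Mki67 (5.21 CPM), Ccnb2 (2.75), Birc5 (2.26) and Kif11 (0.295), replicate 2 for Aurka (3.99) and Aurkb (3.74), and replicate 4 for Cdkn2c (44.7). Mitotic transcripts were thus read in different MG seizure libraries.

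In MLC seizure, replicate 1 stood apart for Rrm2 (6.39 CPM), Aurkb (5.56), Plk1 (3.34) and Kif11 (5.28), and replicate 2 for Mcm7 (47.9) and Aurka (5.25). Replicate 3 did so for Mcm5 (11.8), Cdt1 (12.9) and Bub1b (14.7), and replicate 4 for Ccnb1 (4.83). Replicate 5, also among the libraries of fewest genes, stood apart for Ccne2 (44.5), Cdkn1b (100.4), Top2a (44.7) and the summed kinase inhibitors (127).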

How the results depend on the processing

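Of the recomputed counts of called members, 151 stayed within 1.5 times of the reported count and 25 did not. The reported count was 0 in every comparison except MLC against MG after seizure, so most that stayed were again 0. Only numbers and not genes were compared. With the replicate block the count of 2 stayed, but Cenpe and Cenpf were called in place of Cenpe and Tpx2. For MLC against MG after seizure, the 2 members called became 9 with DESeq2, 4 with RLE scaling, 4 without the low-count filter, 1 with only the groups compared (Cenpe), and 1 (Ccnd2) without the 3 libraries of fewest genes. Tpx2 did not pass the low-count filter with only the groups compared, so it was not tested in that setting. For MLC against MG after saline, the 0 became 2 (Ccnd2 and Stmn1) with DESeq2, limma-voom and only the groups compared. For MLC against NoTx after saline it became 2 with DESeq2, 4 with limma-voom and 1 with only the groups compared; after seizure it became 6, 1 and, without the 3 libraries of fewest genes, 2 (Ccnd2 and Mki67). DESeq2 called 4 for MG against NoTx after seizure, 2 for seizure against saline in MG and 1 for the interaction, and limma-voom called 2 for MG against NoTx after saline and 1 for seizure against saline in MG. Leaving out each library in turn gave 1 to 3 members for MLC against MG after seizure and 0 to 1 for MLC against NoTx after seizure. The cause of the other changes was not tested.

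Whether replicate numbers pair the samples is not known. Same-numbered libraries had deviations with correlations of -0.0638 to 0.134, and low values over noisy libraries cannot exclude pairing. With a replicate block, MLC against NoTx after saline had 1 member called (Cdk6), and MLC against MG after seizure had 2, Cenpe and Cenpf. The codes in the seizure library names were checked as a block after seeing the data: of 14 same-code pairs of libraries, 2 had a correlation over 0.1 (range -0.0638 to 0.159). With the replicate block by code, MLC against MG after seizure had 2 members called (Ccnd2 and Cenpe), MLC against NoTx 1 (Ccnd2) and MG against NoTx 0 (9 of all genes).

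The sign turned for Ccnd1 in MG, seizure against saline (0.10 with the block and GC correction), and in MG against NoTx after seizure for 4 genes. Leaving out each library gave -0.69 to 8.05 for Cdc6 (lowest without MG seizure replicate 3; -2.92 without the 3 libraries of fewest genes), -9.14 to 0.70 for Bub1b and -8.14 to 0.22 for Kif11 (both highest without NoTx seizure replicate 1), and -9.62 to 1.62 for Plk1 (highest without NoTx seizure replicate 2). The replication sum of NoTx saline was 255 CPM with RLE scaling and 276 CPM unscaled. The GC correction moved the median of all genes, seizure against saline, to 0.85 in MG, 0.58 in MLC and 0.79 in NoTx. Over all genes, calls for MLC against MG were 299 after saline (DESeq2 660, limma-voom 1698, only the groups compared 872) and 1109 after seizure (2447 with DESeq2, 502 with only the groups compared, 618 without the 3 libraries). For MLC against NoTx they were 237 after saline (661, 1551 and 499) and 1162 after seizure (2748 with DESeq2, 606 with only the groups compared). DESeq2 called 627 for MG against NoTx after seizure, where edgeR called 14, and 274, 130 and 218 for seizure against saline in MG, MLC and NoTx, where edgeR called 7, 0 and 20, and 143 for the interaction, where edgeR called 0. For MG against NoTx after saline edgeR called 10, DESeq2 104, limma-voom 439, the replicate block 3 and only the groups compared 2. Limma-voom called 24 for MG against NoTx after seizure, 260, 103 and 90 for seizure against saline in MG, MLC and NoTx, and 8 for the interaction.

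Counts near 0 limit the G2 and mitosis genes: all 19 had 3 or fewer counts in some library, so a library at 0 does not show that the cells lacked the transcript.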
